A study of Mus musculus with 8 samples.

Results

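Pax2, Pax8, Lhx1, Emx2, Gata2 and Gata3 are transcription factor genes known for their part in building the Wolffian duct, the embryonic tube that becomes the epididymis and vas deferens. Their 6 rows were taken by gene symbol from a count table of 46517 mouse genes, and all 6 were among the 16469 that passed the filter on low counts. RNA was sequenced from epididymal ducts dissected at E18.5, from 4 controls, which the labels number 1, 3, 4 and 6. The other 4 libraries carry a conditional knockout (cKO) label for Ptk7 and the numbers 1, 2, 4 and 5. Controls had the genotype Ptk7+/flox and knockouts Ptk7Xst87/flox, where Xst87 is a disrupted allele. Every embryo of either group also carried the T-Cre transgene and the mT/mG reporter, so the controls held Cre and a floxed allele too. T-Cre is driven from the Brachyury gene T, which is active in early mesoderm, the source of both the duct and its mesenchyme. Whether each library is a different embryo is not said in the labels, and p-values here reflect only the scatter among the 8 samples, some of which may be technical.

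In the nephric duct, Pax2 and Pax8 encode paired-box factors that start the lineage and can stand in for each other, and Gata3 is known to act below them. Lhx1 encodes a LIM homeodomain factor of duct growth, Emx2 an empty-spiracles homeodomain factor needed to keep the urogenital ducts, and Gata2 a zinc finger factor best known from blood and endothelium that is also found in urogenital tissue. LIM homeodomain factors work with LDB adaptor proteins, and GATA factors with FOG proteins, encoded by Zfpm1 and Zfpm2.

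Total counts lay between 24807970 and 29590547 a library. Ptk7, which encodes a transmembrane protein of planar cell polarity and WNT signalling, stood at 189, 112.5, 313 and 169 CPM (counts scaled to a common library size) in controls 1, 3, 4 and 6. The libraries labelled Ptk7 cKO 1, 2 and 4 held 7.33, 7.59 and 12.5 CPM, and the library labelled Ptk7 cKO 5 held 194, so the level in the last goes against its label. Directions below are therefore between labels, and values without that library are given for the members and for the list counts. The duct label was checked against 21 epithelial markers, of which all were detected, Epcam at a control mean of 270 CPM. Mesenchyme and smooth muscle markers were more abundant, at a summed 8461 to 10121 CPM in controls, so each library is a mixture of cell types. With the knockout label those mesenchymal markers summed to 7524 to 9937 CPM. Of the 9, 5 were lower at an unadjusted p under 0.05, as were 4.87% of all genes tested. In such bulk samples, fewer cells of a type and less RNA per cell cannot be told apart.

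Promoter sequence is shown for 3 genes that differ in how their RNA behaved: Lhx1, with the largest difference among the 6, Pax8, with a smaller difference, and Gata2, the most abundant. Each run is the 250 bases upstream of a RefSeq transcript start (GRCm38.p6), written 5′ to 3′ on the gene's strand. Windows of this kind were found for all 6 genes. The capitals mark matches, on either strand, to CCAAT (the CCAAT box) or GATAA (a core of GATA sites), and TAATTA (a homeodomain core) and TATAAA were searched as well.
Lhx1, chr11:84525535-84525784, minus strand: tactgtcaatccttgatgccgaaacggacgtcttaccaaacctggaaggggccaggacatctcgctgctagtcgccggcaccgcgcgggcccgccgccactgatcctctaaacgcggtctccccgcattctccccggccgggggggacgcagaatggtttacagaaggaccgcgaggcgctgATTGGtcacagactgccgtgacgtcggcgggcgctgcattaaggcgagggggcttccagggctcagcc
Pax8, chr2:24475600-24475849, minus strand: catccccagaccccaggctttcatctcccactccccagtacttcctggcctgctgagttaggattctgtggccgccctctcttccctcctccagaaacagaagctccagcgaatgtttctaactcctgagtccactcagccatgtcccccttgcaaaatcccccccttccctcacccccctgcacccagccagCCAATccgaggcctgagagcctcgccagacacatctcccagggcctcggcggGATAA
Gata2, chr6:88193641-88193890, plus strand: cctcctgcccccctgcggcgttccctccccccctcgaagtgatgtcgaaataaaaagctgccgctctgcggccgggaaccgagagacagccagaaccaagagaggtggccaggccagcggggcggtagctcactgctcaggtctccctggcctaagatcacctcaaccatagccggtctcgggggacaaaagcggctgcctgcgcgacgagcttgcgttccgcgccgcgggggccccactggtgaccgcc
The Lhx1 window held 26 CpG dinucleotides, more than 90.4% of 32851 such windows in the genome, and 1 CCAAT match that begins 68 bases upstream of the start. The Pax8 window held 6 CpGs, equal to the median over all windows, with 1 CCAAT match and 1 GATAA match that ends at the start itself. This Gata2 window held 22 CpGs and no match to the 4 motifs, while a second Gata2 window, at an internal start 4773 bases downstream, held 2 CCAAT matches. Emx2 had 1 CCAAT match, and the windows of Gata3 (1) and Pax2 (3) had none. CCAAT occurred in 33.9% of all windows, GATAA in 22.6%, TATAAA in 12.4% and TAATTA in 4.84%, and no window of the 6 genes held either of the last 2. These are letter matches and not shown binding sites.

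Levels between genes were compared per length, in TPM (the share of transcripts, computed from the deposited counts and exon lengths). Gata2 was the most abundant of the 6, at 137 ± 7.89 TPM in control (SD, n = 4), higher than 94.0% of the genes tested. Emx2 followed at 55.8 ± 5.59 TPM, then Lhx1 at 19.96 ± 3.34, Gata3 at 13.7 ± 3.502, Pax8 at 7.86 ± 1.06 and Pax2 at 7.53 ± 1.74 (control TPM, SD, n = 4 each). The order from Gata2 down to Lhx1 and the step from Gata3 to Pax8 showed no overlap between control libraries. The control ranges of Lhx1 and Gata3 overlapped, yet Lhx1 was above Gata3 in 8 of 8 libraries. Pax8 and Pax2 did not differ beyond their spread, with Pax8 higher in 6 of 8 libraries. Gata2 was thus present at 2.46 times the control level of Emx2, and Emx2 at 2.80 times that of Lhx1.

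**Figure D1:**
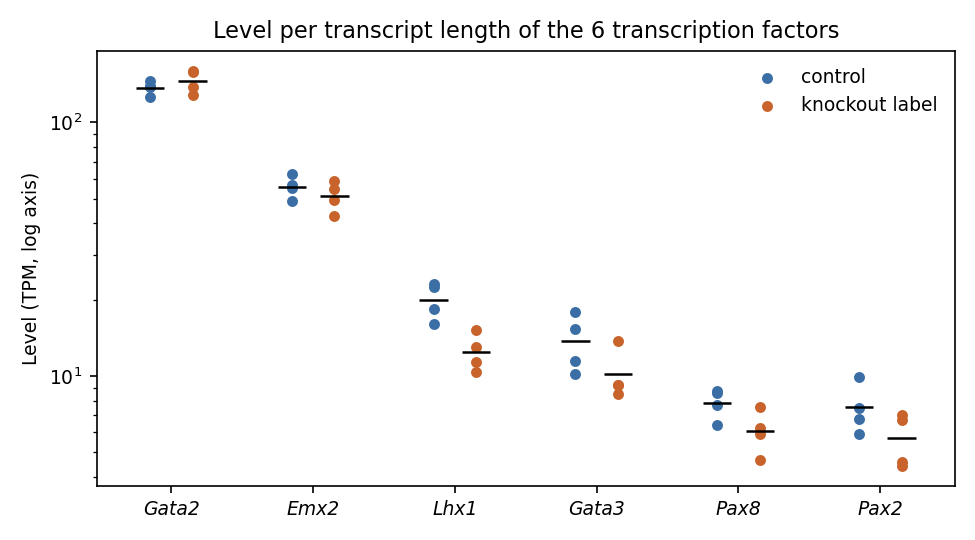
Level of each gene in TPM on a log axis, with 1 point per library (blue, control; orange, knockout label) and a black line at the mean of 4. Gata2 lies near 137 TPM in control and Pax8 and Pax2 near 7.5 to 7.9, and the 2 colours are fully apart for Lhx1 only.

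Setting the knockout label against control asks whether the regulators of the duct differ when Ptk7 is disrupted. Of the 6 genes, Lhx1, Gata3, Pax2 and Pax8 were lower by 0.36 to 0.67 on the log2 scale, Emx2 differed by less than its spread, and Gata2 lay slightly above control. By edgeR's quasi-likelihood test with adjustment over all 16469 genes, 0 of the 6 passed 0.05, and 0 genes passed anywhere (0% of those tested). At an unadjusted p under 0.05, 4 of the 6 were lower and 0 higher, where 4.87% of all genes were lower and 3.50% higher. That count depended on the fit and on single libraries. In limma voom with quality weights over all libraries it was 2 (Lhx1 and Pax8), where 974 of 16469 genes were lower. In an edgeR fit of only the libraries numbered 1 and 4, with the number as a block, it was 5, all but Gata2. There 919 of 16661 genes were lower. In the main edgeR fit the count was 1, Lhx1, without control 3, without control 4 or without cKO 4. Over all genes, 653 of 16665, 639 of 16641 and 704 of 16657 were lower in those fits. The member count was 2 without cKO 1 (Lhx1 and Pax8), where 655 of 16650 genes were lower. Without cKO 5 it was 3 (Lhx1, Pax2 and Pax8), in a fit where 835 of 16697 genes were lower. DESeq2, run on the same counts, called 1 of the 6, Lhx1, and 186 genes in all, 0.777% of those tested being called lower. The median log2 fold change was -0.38 over the 6 genes and 0.0055 over all genes. Values were below 0 for 5 of the 6 (48.6% of all genes) and at -0.3 or lower for 4 of the 6 (7.15% of all genes). The genes were picked with earlier results of these libraries known, so this share is a description.

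Lhx1 (ENSMUSG00000018698; GRCm38 chromosome 11, 84518284 to 84525535, minus strand, 5 exon intervals) had 36.4, 44.3, 43.6 and 31.5 CPM in controls 1, 3, 4 and 6. In cKO 1, 2, 4 and 5 it stood at 23.99, 28.2, 20.3 and 25.3 CPM. Every control was above every library with the knockout label, which held for no other gene of the 6 and for 3.11% of all genes (2.65% in the opposite direction, with 0 of the 6). Controls averaged 38.96 ± 6.15 CPM and the knockout label 24.4 ± 3.26 (SD, n = 4 each), or 62.7% of control. The log2 fold change was -0.67 (SE 0.13, edgeR adjusted p = 0.161, unadjusted 0.00036), and DESeq2 called it (adjusted p = 0.0012). The library labelled Ptk7 cKO 5, with Ptk7 at the control level, had Lhx1 at 64.9% of the control mean, and without that library the log2 fold change was -0.69 (SE 0.15, edgeR adjusted p = 0.23).

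Gata3 (ENSMUSG00000015619; chromosome 2, 9857078 to 9890034, minus strand, 10 exon intervals) had 22.1, 33.6, 29.2 and 19.7 CPM in the 4 controls in the same order. The libraries with the knockout label had 17.5, 24.9, 17.6 and 17.4 CPM. Libraries cKO 1, 4 and 5 lay below all controls, while cKO 2 was above controls 1 and 6, so the groups overlapped. The log2 fold change was -0.43 (SE 0.18, edgeR adjusted p = 0.543), a difference that did not pass. Control values varied most for this gene, with a coefficient of variation of 24.5%, against 6.32% for Gata2. Without control 3 the log2 fold change was -0.29 and the unadjusted edgeR p 0.109.

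Pax2 (ENSMUSG00000004231; chromosome 19, 44756045 to 44837871, plus strand, 11 exon intervals) had 17.7, 19.2, 25.8 and 15.4 CPM in controls 1, 3, 4 and 6. In cKO 1, 2, 4 and 5 it had 12.4, 17.3, 11.9 and 17.3 CPM. Libraries cKO 1 and 4 were below every control, whereas cKO 2 and 5 were above control 6 and just below control 1. The mean level with the knockout label was 75.5% of control, with a log2 fold change of -0.41 (SE 0.18, edgeR adjusted p = 0.586). That value rests in part on control 4, without which it was -0.25 (edgeR adjusted p = 0.749).

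Pax8 (ENSMUSG00000026976; chromosome 2, 24420560 to 24475599, minus strand, 13 exon intervals) had 22.6, 24.97, 24.95 and 18.8 CPM in the controls and 18.6, 20.9, 13.6 and 17.995 CPM in the libraries with the knockout label. Only cKO 2 reached above a control, control 6, and cKO 4 was the lowest of the 8. The log2 fold change was -0.36 (SE 0.14, edgeR adjusted p = 0.507). The knockout label thus stood at 77.8% of control for Pax8 and, as given above, at a similar share for its paralog Pax2. Without cKO 5 the share was 77.4% for Pax8, 71.1% for Pax2 and 76.6% for Gata3.

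Emx2 (ENSMUSG00000043969; chromosome 19, 59458372 to 59465357, plus strand, 4 exon intervals) had 82.5, 78.1, 89.8 and 71.1 CPM in the controls and 66.2, 80.2, 71.0 and 78.2 CPM in the libraries with the knockout label. The groups overlapped broadly, with cKO 2 and 5 inside the control range. The difference in log2 CPM was -0.12 (SE 0.09, edgeR adjusted p = 0.738), or 91.9% of control, and -0.15 without cKO 5 (SE 0.10).

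Gata2 (ENSMUSG00000015053; chromosome 6, 88193891 to 88207032, plus strand, 7 exon intervals) had 362, 323, 375 and 360 CPM in the controls. In cKO 1, 2, 4 and 5 it had 360, 390, 414 and 353 CPM, so the lowest library was control 3 and the highest cKO 4, and 2 of the 4 labelled knockouts lay inside the control range. The log2 fold change was 0.09 (SE 0.08, edgeR adjusted p = 0.77), and 0.13 without cKO 5 (SE 0.08). Gata2 was the most even of the 6 across libraries, and the standard deviation of its log2 CPM over all 8 was 0.11, against 0.41 for Lhx1.

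**Figure D2:**
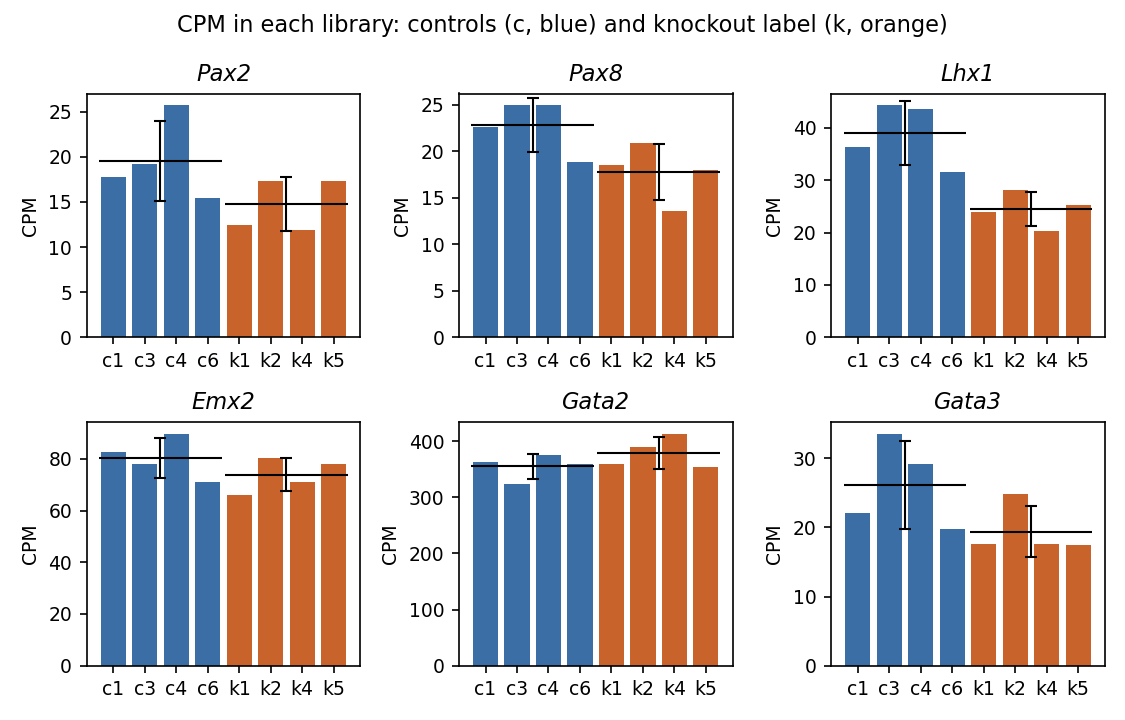
CPM of each gene in the 8 libraries (c, control; k, knockout label, with the number from the label), with the group mean as a black line and the SD of 4 libraries as an error bar. Lhx1 is the 1 gene in which all orange bars (20.3 to 28.2 CPM) lie below all blue bars (31.5 to 44.3 CPM).

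Ratios within a library do not depend on how libraries are scaled, so 3 of them were compared between groups. The test was an exact permutation of labels, two-sided, which cannot give a p below 0.0286, or below 0.0857 after adjustment where 1 of the 3 ratios separates the groups and the others do not. The log2 ratio of Pax2 to Pax8 was -0.24 ± 0.20 in control and -0.27 ± 0.22 with the knockout label (SD, n = 4 each, exact permutation p = 0.886, adjusted over 3 ratios 0.886). That difference, -0.03, was far inside the spread between replicates. The log2 ratio of Gata2 to Gata3 was 3.79 ± 0.41 in control and 4.30 ± 0.24 with the knockout label (n = 4 each, exact permutation p = 0.0857, adjusted 0.129). Lhx1 stood above Pax2 by 1.01 ± 0.18 in control and by 0.74 ± 0.17 with the knockout label (n = 4 each, exact permutation p = 0.0857, adjusted 0.129). None of the 3 ratios passed, and a single ratio could not have passed on its own, so these tests do not settle whether Lhx1 and Pax2, or Gata2 and Gata3, differed in response.

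Markers of the duct epithelium were also lower on average with the knockout label, and followed the members in some libraries but not in all. Of 21 such markers 18 had a log2 fold change below 0 (48.6% of all genes), and the median was -0.24. At an unadjusted p under 0.05, 8 were lower and 1 higher (4.87% and 3.50% of all genes). Their mean log2 level, centred on each gene, was 0.16, 0.06, 0.22 and -0.0039 in controls 1, 3, 4 and 6, and -0.17, 0.13, -0.31 and -0.08 in cKO 1, 2, 4 and 5. Library cKO 4, lowest for the epithelial markers, was also lowest for Lhx1, Pax8 and Pax2, and cKO 2, highest of its group, was highest there for Lhx1, Pax8, Gata3 and Emx2. Control 3 went otherwise. It was the highest of all libraries for Lhx1 (44.3 CPM) and Gata3 (33.6 CPM), while its epithelial marker level was below that of controls 1 and 4. With this marker level as a covariate in edgeR, the log2 fold change was -0.04 for Pax2 (SE 0.17), -0.09 for Pax8 (SE 0.14), 0.03 for Emx2 (SE 0.10), -0.20 for Gata3 (SE 0.21) and 0.09 for Gata2 (SE 0.11). Lhx1 was at -0.44 in that fit (SE 0.14, edgeR adjusted p = 0.865). It was the only one of the members lower at an unadjusted p under 0.05 there, where 2.61% of all genes were lower. The summed level of the same markers overlapped between groups, at 1580 to 1813 CPM in control and 1336 to 1874 with the knockout label.

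**Figure D3:**
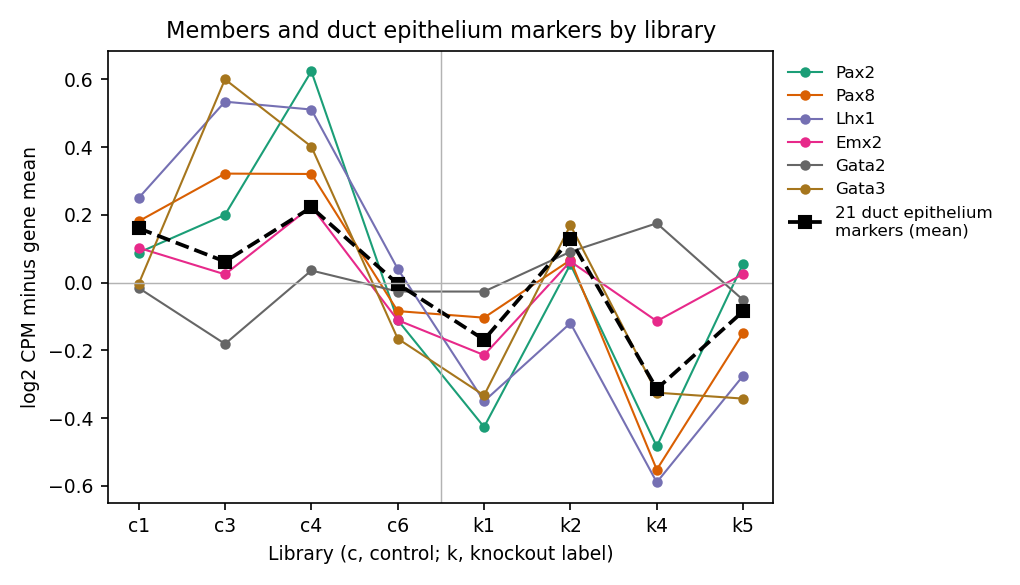
log2 CPM of each gene minus its mean over 8 libraries (vertical axis) by library (horizontal axis), with the mean of 21 duct epithelium markers as black squares. Lines only join the values of a gene, since libraries have no order. Epithelial markers are lowest in k4 (-0.31), where Lhx1 (-0.59), Pax8 (-0.55) and Pax2 (-0.48) are lowest too, and Gata2 is highest there (0.18).

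**Figure D4:**
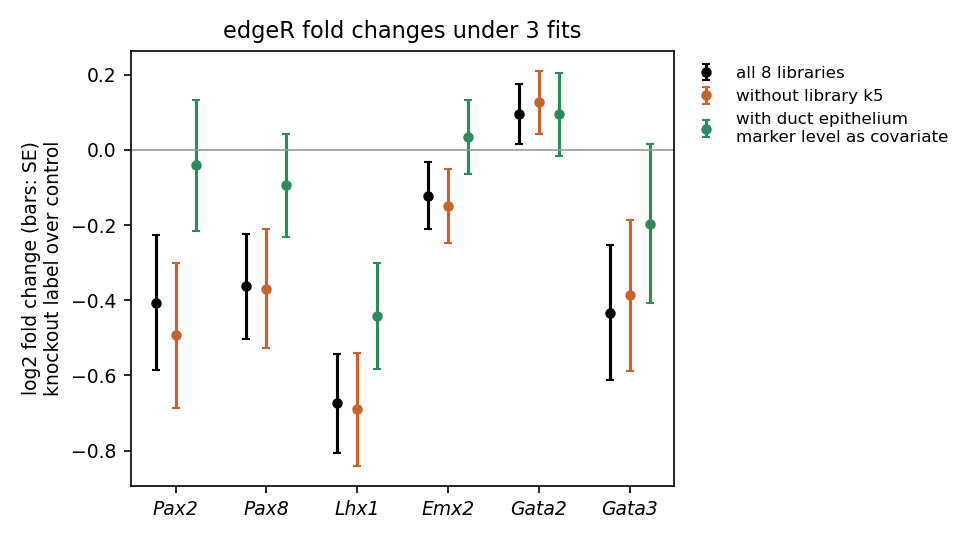
log2 fold change of each gene, knockout label over control, with its SE, in 3 edgeR fits: all 8 libraries (black), without the library labelled Ptk7 cKO 5 (orange), and with the duct epithelium marker level as a covariate (green). Pax2 and Pax8 move from -0.41 and -0.36 to -0.04 and -0.09 with the covariate, and Lhx1 from -0.67 to -0.44.

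Other cell types that can express members were looked at by their markers. Mast cells depend on Gata2, and 5 of their markers summed to 13.9 to 30.6 CPM in control and 23.1 to 39.2 with the knockout label. Endothelial markers, 10 genes, summed to 451 to 514 CPM in control and 412 to 566 with the knockout label, and 0 of 10 passed an unadjusted p of 0.05. Markers of kidney nephrons, a tissue that uses Pax2, Pax8, Lhx1 and Emx2, were near 0 apart from Podxl, which other cells also express: Nphs1, Slc12a1, Slc34a1 and Slc22a6 peaked at 0.074, 0.15, 0.079 and 0.10 CPM. Of the T cell markers, which bear on Gata3, Cd3e, Cd3g and Cd3d peaked at 0.21, 0.31 and 0.56 CPM and Cd2 at 0.73, while Lck, at a mean of 6.18 CPM in control and 6.53 with the knockout label, made up most of the summed 5.26 to 8.25 CPM in control and 6.01 to 7.98 with the knockout label. The part of Lck-expressing cells in the Gata3 value was not tested. Sympathetic neuron and chromaffin markers, from tissue that also uses Gata2 and Gata3, summed to 51.2 to 69.9 CPM in control and 73.7 to 118 with the knockout label, without overlap, while Dbh and Phox2a stayed under 0.42 CPM. The part of the neuronal markers in the values of Gata2 and Gata3 was not tested.

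Genes that share or border the loci were read from the same table. Within 20 kb of the 6 genes lay 18 others, of which 10 had a summed count of 10 or fewer over the 8 libraries and 5 were tested. Lhx1os, a long noncoding RNA on the opposite strand that starts 125 bases from the Lhx1 span and inside the Lhx1 window printed above, had 5.14 ± 0.68 CPM in control and 4.19 ± 0.90 with the knockout label (SD, n = 4 each, log2 fold change -0.29, SE 0.18, edgeR adjusted p = 0.698). Aatf, the next gene on the other side of Lhx1, had 25.2 ± 3.31 CPM in control and 26.6 ± 1.99 with the knockout label (edgeR adjusted p = 0.857). Aatf thus did not differ beyond its spread. Lhx1os was lower on average, in the direction of Lhx1, but its groups overlapped and it did not pass. Emx2os, the antisense transcript that shares 264 exon bases with Emx2, had 9.05 ± 2.82 CPM against 9.60 ± 0.61 (log2 fold change 0.08, edgeR adjusted p = 0.927). The strand setting of the counting is not given in the sources used here, so reads in that shared stretch cannot be assigned to Emx2 or Emx2os with certainty. The same holds for 367 bases that Pax8 shares with Gm13415 and 155 that Gata3 shares with Gm13256, which had 3 and 6 counts summed over the 8 libraries. On its own strand Gata3 shares 77 exon bases with 9230102O04Rik, which had 38 counts in all, and no strand setting could separate those reads.

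For each member the nearest patterns were sought among 9995 named genes of at least 10 mean CPM, as the root mean square (RMS) difference in centred log2 CPM over the 8 libraries. Nearest to Lhx1 were Gja1, the gap junction gene connexin 43 (RMS 0.088), Grhl2, an epithelial transcription factor (0.093), and the amino acid transporter Slc16a10 (0.097). Nearest to Pax2 were Rab11fip4 (0.10), Btaf1 (0.11) and Celsr2, a planar polarity cadherin (0.12). Nearest to Pax8 were Map3k5 (0.073), the potassium channel gene Kcnk1 (0.075) and Myo5b, a motor of apical transport (0.075). Gata3 was nearest to Spink8 (0.086), Cpm (0.11) and Sgms2 (0.12), Emx2 to Spata13 (0.046), Zfp84 (0.053) and Nhsl1 (0.053), and Gata2 to Dapk1 (0.036), Wipi2 (0.038) and Atp8b2 (0.041). Among the 6 genes themselves Pax8 was the closest to each of Pax2, Lhx1 and Gata3, as the 41st, 47th and 85th nearest gene. Gata2 and Emx2 stood apart from these 4, and although each was the other's closest member, Emx2 ranked only 5025th for Gata2. These are descriptions over 8 libraries that share the same group difference.

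Other regulators and signals of the duct and ureteric bud, 26 genes, were all tested. At an unadjusted edgeR p under 0.05, 9 were lower and 2 higher (4.87% and 3.50% of all genes). The median log2 fold change was -0.10, and 0 passed after adjustment. DESeq2 called Tfcp2l1, Npnt and Wnt7b among the genes named here (adjusted p = 0.00372, 0.00886 and 0.0487). Without control 4 the count of lower genes was 5, in a fit where 639 of 16641 genes were lower. Without cKO 5 it was 6, where 835 of 16697 were lower. Tfcp2l1, a duct transcription factor, had 53.7, 78.9, 74.1 and 52.9 CPM in controls 1, 3, 4 and 6 and 36.9, 44.1, 41.4 and 43.9 CPM in cKO 1, 2, 4 and 5 (log2 fold change -0.64, SE 0.14, edgeR adjusted p = 0.185). Wnt7b, a secreted WNT ligand of duct epithelium, had 28.3 ± 4.50 and 19.4 ± 3.36 CPM (-0.54, SE 0.15) without overlap of the groups. Npnt, the integrin ligand nephronectin, and Cdh16, or Ksp-cadherin, had log2 fold changes of -0.44 (SE 0.10) and -0.37 (SE 0.12). Spry1, an inhibitor of receptor tyrosine kinase signalling, lay level at 74.3 ± 8.15 and 74.1 ± 7.73 CPM. With the epithelial marker level as a covariate the count of lower genes went from 9 to 2, which were Tfcp2l1 (-0.54) and Npnt (-0.31). Over all genes tested, the share lower went from 4.87% to 2.61% between the same fits.

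Ret, the receptor of GDNF and a known target of Gata3 in the duct, was scarce and ran the other way. It had 1.07, 0.63, 0.77 and 0.66 CPM in the controls and 2.34, 2.44, 1.76 and 0.70 CPM in cKO 1, 2, 4 and 5. The 3 libraries with little Ptk7 were above every control, and cKO 5 lay inside the control range. The log2 fold change was 1.22 over all libraries (SE 0.37, edgeR adjusted p = 0.364) and 1.48 without cKO 5 (edgeR adjusted p = 0.179), so it did not pass in either. The summed neuronal markers given above were also higher with the knockout label, the library labelled cKO 5 included, and their part in the Ret value was not tested.

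Proteins that bind LIM homeodomain, GATA or PAX factors numbered 26, of which 23 were tested, with a median log2 fold change of 0.13. Of these, 3 were higher and 1 lower at an unadjusted edgeR p under 0.05 (3.50% and 4.87% of all genes). Without control 1 the counts were 5 higher and 2 lower (610 and 731 of all 16671 genes in that fit). Without control 6 there were 2 lower (886 of 16626 genes). Without cKO 5 there were 4 higher and 1 lower (625 and 835 of 16697 genes). The single-stranded DNA binding adaptor Ssbp3, a partner of LDB proteins, had 165 ± 6.70 CPM in control and 199 ± 10.6 with the knockout label (SD, n = 4 each, log2 fold change 0.26, SE 0.07, edgeR adjusted p = 0.29), without overlap, and DESeq2 called it (adjusted p = 0.0205). Zfpm2, a FOG cofactor of GATA proteins, had 29.2 ± 1.74 and 35.7 ± 3.93 CPM (0.29, SE 0.09, edgeR adjusted p = 0.386). The LDB adaptors themselves did not pass, with 129 ± 32.6 and 152.1 ± 4.805 CPM for Ldb1 and 98.8 ± 6.02 and 104 ± 9.53 CPM for Ldb2. Ssbp4, the most abundant cofactor by TPM, had 90.97 ± 26.95 and 113 ± 1.13 CPM (0.32, SE 0.19). In control 3 Ldb1 and Ssbp4 were low, at 80.4 and 51.2 CPM,. Tle2, a Groucho corepressor, was higher (0.46, SE 0.14) and Eya4, a PAX-SIX network cofactor, lower (-0.62, SE 0.19) at low levels of 1.496 to 4.76 CPM in the group means, and neither passed after adjustment.

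Of 24 other PAX, LIM homeodomain, EMX and GATA family genes only 7 had enough counts to be tested. At an unadjusted edgeR p under 0.05, 1 was higher without control 6 or without cKO 2, and 2 were higher without cKO 5. Over all genes, 689 of 16626, 477 of 16683 and 625 of 16697 were higher in those fits. With all libraries 3 were higher and 0 lower (3.50% and 4.87% of all genes). Those 3 were Gata6 (45.5 ± 7.53 CPM in control, 61.1 ± 6.43 with the knockout label, SD, n = 4 each, log2 fold change 0.43, SE 0.12), Gata5 (7.45 ± 1.41 and 10.3 ± 2.04, 0.46, SE 0.17) and Gata4 (1.66 ± 0.98 and 3.19 ± 0.93, 0.95, SE 0.42). None passed after adjustment in edgeR (adjusted p = 0.319, 0.495 and 0.586) or in DESeq2 (0.0805, 0.293 and 0.376). Gata4 was the one no longer under an unadjusted p of 0.05 without cKO 5. Gata6 was the most abundant of the 7 at a mean of 34.7 TPM and its groups did not overlap. Trps1, an atypical GATA-type repressor, was level at 83.8 ± 15.7 and 80.04 ± 4.20 CPM. Mesothelium markers, from a tissue known to use GATA4 to GATA6, were higher in the same libraries, at a summed 368 to 448 CPM in control and 462 to 596 with the knockout label for 5 genes, and their part in the Gata6 value was not tested. No PAX gene other than Pax2 and Pax8, and no EMX gene other than Emx2, passed the filter on low counts.

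**Figure D5:**
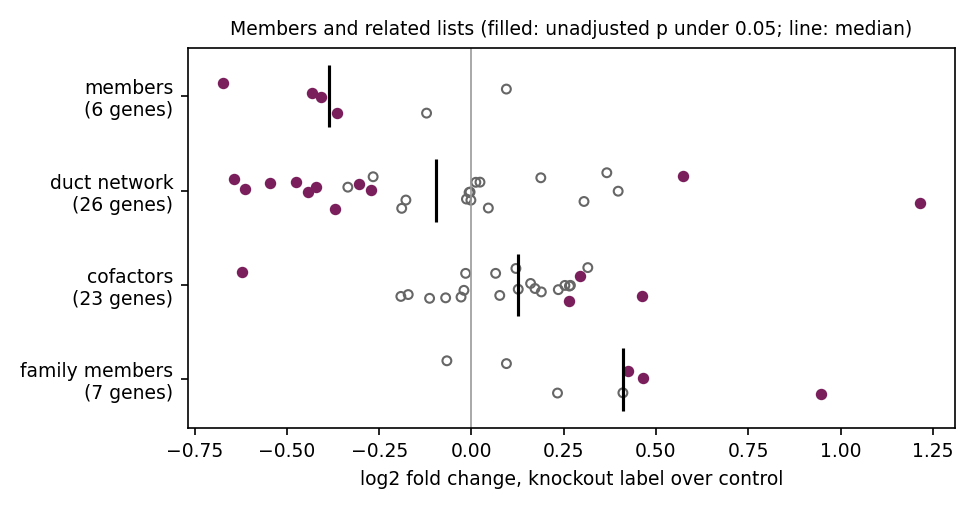
log2 fold change, knockout label over control, of each tested gene (points) in the 6 members, 26 duct network genes, 23 cofactors and 7 family members, with filled points at an unadjusted edgeR p under 0.05 and a line at the list median. Medians run from -0.38 for the members and -0.10 for the duct network to 0.13 for the cofactors and 0.41 for the family members.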

How the data were processed

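The authors deposited raw read counts per gene, 1 column per library, for 46517 genes on GRCm38, with summed exon lengths. Per the submitters' processing notes, STAR and featureCounts were used. Tool versions, the strand setting, the annotation release and the handling of multi-mapped reads: not given in the sources used here. Of the Ensembl identifiers, 46005 had a symbol. TPM was computed from all counts and exon lengths. The test was edgeR 4.0.16 in R 4.3.3 (TMM factors, filterByExpr, 16469 genes, quasi-likelihood F test on group over 8 libraries, Benjamini-Hochberg at 0.05), and CPM uses the same factors. Standard errors (SE) are approximate: the size of the log2 fold change divided by the square root of the F statistic. The biological coefficient of variation was 15.2%. Alternatives were other size factors and filters, DESeq2 1.42.0, limma voom (3.58.1), an epithelial marker covariate, a replicate block, and leaving out each library. The marker covariate is the mean log2 CPM (prior count 2) of 21 genes.

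The members and lists were chosen with earlier results of these data known. Named genes are the 6 members, Ptk7, in each list the 4 with the highest TPM and up to 5 with the smallest unadjusted p under 0.05, genes within 20 kb of a member, and the 3 nearest in pattern. A gene that this rule names is not reported here. Marker genes named singly, and library values singled out, were picked with their values in view. The code was tested on simulated counts for this comparison (16298 genes after the filter): edgeR recovered 1 of 50 genes at the smallest fold simulated, 25 of 50 changed 1.5-fold, 43 at 2-fold and 50 at 4-fold, with 10 unchanged genes called. Promoter windows come from RefSeq (GRCm38.p6). Figures were drawn with matplotlib 3.10.9.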

Additional observations from a re-analysis of the deposited data

Results flagged for a closer look

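Among 102 groups of 4 libraries tested for a value far from the others (Dixon's criterion, which chance meets in about 1 of 20), 5 stood out. Gata3 in the library labelled Ptk7 cKO 2 was 24.9 CPM, where the other 3 of that label lay between 17.4 and 17.6. Ptk7 in cKO 5 was 194 CPM, against 7.33 to 12.5. In control 3, Ldb1 was 80.4 CPM (143.6 to 149 in the other controls) and Ldb2 was 107.9 CPM (95.6 to 96.1). Gm38708, a noncoding gene near Gata2, had 2.71 CPM in cKO 4, against 1.53 to 1.57.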

How the results depend on the processing

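Over 18 alternatives each, Pax2, Pax8, Lhx1, Gata2 and Gata3 kept their direction. Emx2 turned from -0.12 to 0.034 with the epithelial covariate and to 0.0051 with that covariate and without cKO 5. That setting and DESeq2 without cKO 5 were chosen after seeing the data. Lhx1 ranged from -0.85 to -0.44 and passed 0.05 in DESeq2 with all libraries and without cKO 5 (adjusted p = 0.0012 and 0.0054), and in no other alternative (up to 0.89). The other 5 members passed in none. Genes called numbered 0 in edgeR, 1 without a filter, 186 in DESeq2 (188 without cKO 5), and 0 to 2 when a library was left out (1 without cKO 5, 2 without control 1). The replicate block over the 4 libraries numbered 1 and 4 called 7 genes. Under the replicate block Pax2 was -0.82 (adjusted p = 0.182), Pax8 -0.58, Gata3 -0.53 and Emx2 -0.33. Same-numbered libraries correlated in their deviations at -0.092 and 0.023, inside the -0.11 to 0.15 of the other pairs. With so few same-numbered pairs, and labels that do not say what the numbers mark, this does not settle whether libraries are paired. Leaving out a library, the difference in log2 ratio ranged from -0.10 to 0.07 for Pax2 to Pax8, changing sign without control 4 (0.065) or cKO 1 (0.071), from 0.33 to 0.64 for Gata2 to Gata3, and from -0.35 to -0.20 for Lhx1 to Pax2. In simulated counts edgeR recovered 1 of 50 genes at the smallest fold simulated, the size nearest to the differences in Pax2, Pax8 and Gata3, so differences of that size are mostly not detectable with 4 libraries a group.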
